A study of Mus musculus with 2 samples.

Results

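Wfdc2, Muc16, Msln, Slpi, Lcn2, Cp and Clu code for secreted or shed proteins that are widely used or studied as markers of ovarian tumors. They were taken by exact symbol from the gene list of the count matrices, and all 7 were found among 32285 genes. The level of each was measured in single cells of mouse ovarian tumors grown from 2 cell lines. KPCA is a mouse line of fallopian tube epithelial origin with alterations that include mutant Trp53 (R172H) and overexpressed Ccne1 and Akt2. KPCA.FSTKO cells derive from the clone KPCA.C by ablation of Fst, the gene of the activin antagonist follistatin. KPCA.FSTKO_hFSTL3 cells are 1 stable clone of KPCA.FSTKO that received a human FSTL3 plasmid and was selected for secretion of FSTL3, so both lines lack Fst. Cells were injected into the peritoneal cavity of female C57BL/6J mice aged 12 to 16 weeks. Omental tumors were taken at day 10, 4 tumors per line were pooled, and 1 library was made from each pool. No treatment of these mice is named in the sources used here.

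The KPCA.FSTKO library held 168214773 UMIs (unique molecular identifiers, 1 per captured transcript) in 7582 barcodes and the KPCA.FSTKO_hFSTL3 library 80391504 UMIs in 4244 barcodes. The filters on mitochondrial share and gene number left 6777 and 4041 barcodes, of which the libraries shared 10. Cell types were rebuilt by clustering without the 7 genes. Cancer-like cells numbered 3626 in KPCA.FSTKO and 171 in KPCA.FSTKO_hFSTL3, mesothelial-like cells 33 and 2, and leukocyte-like cells 1211 and 188. The libraries stood apart in one respect that touches every comparison between them. In KPCA.FSTKO_hFSTL3, 3504 barcodes (86.7%) fell into clusters with 2 or more pancreatic acinar genes among their top 10, against 38 in KPCA.FSTKO. Of 14 cancer markers, clusters 0 and 9 among them raised 9, cluster 5 raised 5 and cluster 10 raised 3. These mixed clusters were kept out of every class. The class sizes of KPCA.FSTKO_hFSTL3 depend on this. With each library clustered alone, cancer-like cells numbered 3904 in KPCA.FSTKO and 2582 in KPCA.FSTKO_hFSTL3, and mesothelial-like cells 48 and 33. The summed level of the acinar marker list in cancer-like cells was 448.5 CPM in KPCA.FSTKO_hFSTL3 and 34.8 CPM in KPCA.FSTKO. The median mitochondrial share of a barcode was 10.7% and 3.71%, respectively.

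The classes were named by the marker lists, so the marker levels given here describe them and are no independent check. Each of the 5 cancer-like clusters raised at least 9 of 14 cancer markers. The summed cancer marker level was 5167 CPM in KPCA.FSTKO and 5190 CPM in KPCA.FSTKO_hFSTL3. The mesothelial-like sub-cluster raised 8 of 9 mesothelial markers and was led by genes such as Anxa8, Upk1b, Upk3b and Lrrn4. It also raised 8 of 14 cancer markers over the other stromal sub-clusters, with Krt7 and Krt8 among its leading genes. Msln was also among its leading genes, and Upk3b reached 72.3 CPM there against 0.0366 CPM in cancer-like cells. Fst gave 5.23 CPM in cancer-like cells of KPCA.FSTKO and 9.11 CPM in those of KPCA.FSTKO_hFSTL3. A count of 3-prime tags does not show whether the ablated part is present, so this value does not check the labels.

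The 7 proteins differ in kind. Wfdc2 (also called HE4) and Slpi carry the whey acidic protein fold, and Slpi inhibits neutrophil elastase and related proteases. Muc16 is the membrane mucin that carries the CA125 epitope, and mesothelin, the product of Msln, is a surface protein of mesothelial and tumor cells that binds it. Lcn2 is a lipocalin that withholds iron-loaded siderophores from bacteria and is stored in neutrophil granules, Cp is a copper-carrying ferroxidase, and Clu is an extracellular chaperone. Slpi, Lcn2 and Cp are also known as products of inflamed epithelium or of the acute-phase response.

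In the GRCm38 annotation, Wfdc2 (ENSMUSG00000017723) lies on chr2:164562413-164568510 on the plus strand and Slpi (ENSMUSG00000017002) nearby on chr2:164354070-164389095 on the minus strand. Lcn2 (ENSMUSG00000026822) lies on chr2:32384633-32388252 on the minus strand, Muc16 (ENSMUSG00000109564) on chr9:18495455-18674530 on the minus strand, and Msln (ENSMUSG00000063011) on chr17:25748613-25754378 on the minus strand. Cp (ENSMUSG00000003617) spans chr3:19957054-20009145 on the plus strand and Clu (ENSMUSG00000022037) chr14:65968483-65981547 on the plus strand. An exon of Slpi overlaps the microRNA gene Mir7678 on the same strand, and Cp overlaps Hps3 on the opposite strand.

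The promoters of Slpi, Lcn2 and Wfdc2 are shown because these genes differed in where they were found below, Wfdc2 with its UMIs mostly in cancer-like cells, and Slpi and Lcn2 with theirs mostly or partly in leukocytes and stroma. RefSeq entries (GRCm38.p6) matched 5 of the 7 genes, and each sequence runs 5′ to 3′ on the gene's strand within the 250 bases upstream of the start in its RefSeq entry. For Slpi, Lcn2 and Wfdc2 that start lies inside the gene span given above, so the printed stretches fall within the annotated genes. Wfdc2 and Cp had 2 entries each, of which the first was used. Stretches inside an annotated UTR were left out. Capitals mark a match to the C/EBP pattern TTGCNNAA on either strand.
Slpi, chr2:164356508-164356757, minus strand: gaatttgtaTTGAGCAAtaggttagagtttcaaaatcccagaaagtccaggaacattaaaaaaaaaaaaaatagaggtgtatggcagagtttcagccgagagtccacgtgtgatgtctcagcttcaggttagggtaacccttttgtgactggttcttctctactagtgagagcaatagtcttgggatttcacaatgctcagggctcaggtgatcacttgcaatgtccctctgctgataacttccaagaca
Lcn2, chr2:32387798-32387989, minus strand: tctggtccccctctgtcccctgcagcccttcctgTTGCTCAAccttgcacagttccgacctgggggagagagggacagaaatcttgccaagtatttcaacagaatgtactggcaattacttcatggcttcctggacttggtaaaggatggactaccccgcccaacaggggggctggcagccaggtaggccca
Wfdc2, chr2:164562465-164562578, plus strand: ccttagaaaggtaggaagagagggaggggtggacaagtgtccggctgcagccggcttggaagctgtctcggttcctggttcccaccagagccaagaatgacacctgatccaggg
The C/EBP pattern was found in the windows of Slpi and Lcn2 and not in those of Wfdc2, Muc16 and Cp. It occurs in 9.56% of 32851 mouse promoter windows of this length. The AP-1 pattern TGANTCA, present in 6.75% of all windows, was found in that of Cp. The NF-kappaB consensus (4.11% of all windows) and the STAT pattern TTCNNNGAA (7.02%) were searched on both strands as well. Matches of letters are a description and show no binding.

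Levels are given as CPM, the UMIs of a gene summed over the cells of a class and scaled to the UMIs of all genes in that class (counts per 1e+06 UMIs), with exact 95% Poisson intervals. The assay counts transcripts at their 3-prime end, so UMIs were not divided by gene length. With 1 library per line there is no replicate, no test was made, and every interval covers counting error only. A gene is called higher or lower between classes or libraries by size alone, when the CPM differs at least 2-fold and both sides together hold at least 100 UMIs.

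In cancer-like cells of KPCA.FSTKO the 7 genes spread over a range from Msln to Muc16. Msln stood at 551 CPM (546 to 555), Wfdc2 at 453 CPM (449 to 457), Clu at 332 CPM (329 to 336) and Cp at 178 CPM (175 to 180). Lcn2 and Slpi were far lower, at 17.6 CPM (16.9 to 18.4) and 12.3 CPM (11.7 to 13.0). Muc16, the CA125 mucin, gave 10 UMIs in 8 of 3626 cells, or 0.0915 CPM. No neighbours in this order had overlapping intervals. The order in cancer-like cells of KPCA.FSTKO_hFSTL3 was not the same, since Wfdc2 stood behind Clu and Cp. There Msln was at 361.6 CPM (349 to 375), Clu at 204.8 CPM (195 to 215), Cp at 94.1 CPM (87.7 to 101) and Wfdc2 at 75.1 CPM (69.4 to 81.2). Slpi was at 9.22 CPM (7.29 to 11.5) and Lcn2 at 1.30 CPM (0.65 to 2.33), and no Muc16 UMI was found, which at this depth leaves room for up to 0.436 CPM.

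Cancer-like cells held 76.9% of the UMIs of all genes in KPCA.FSTKO, and the members lay on both sides of that share. These cells held 92.7% of all Msln UMIs of the library, 91.5% of Wfdc2, 86.9% of Cp and 81.5% of Clu. They held less of the others, 58.6% of Lcn2, 29.4% of the 34 Muc16 UMIs and 18.2% of Slpi. The Slpi UMIs were divided among leukocyte-like cells with 34.7%, the other stromal cells with 27.9% and the 33 mesothelial-like cells with 16.5%. In KPCA.FSTKO_hFSTL3 the mixed clusters held between 66.2% (Cp) and 100% (Muc16) of the UMIs of each gene, against 78.6% of the UMIs of all genes. Its cancer-like cells held 16.5% of Msln and 13.5% of Wfdc2, against 12.1% of all UMIs.

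**Figure D1:**
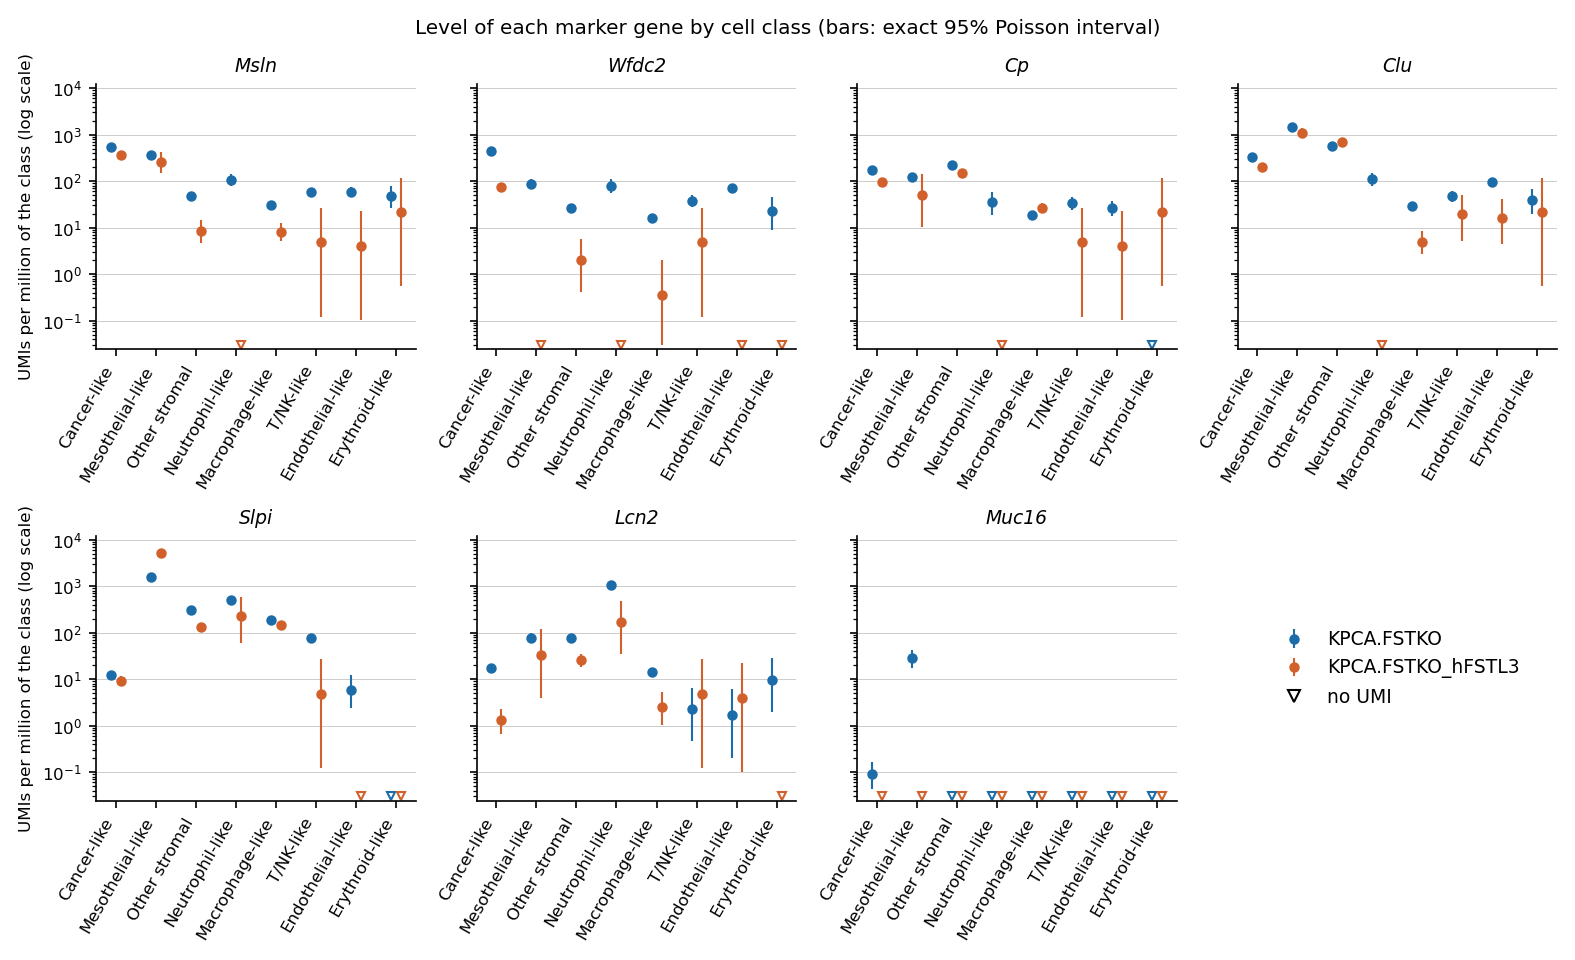
Level of each gene in 8 cell classes of both libraries, as CPM on a log axis, with exact 95% Poisson intervals and open triangles where no UMI was found. In KPCA.FSTKO, Wfdc2 and Msln are highest in cancer-like cells (453 and 551 CPM), Slpi and Clu in mesothelial-like cells (1545 and 1447 CPM) and Lcn2 in neutrophil-like cells (1067 CPM).

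Against leukocytes, 4 genes were higher in cancer-like cells of KPCA.FSTKO and 2 were lower. Wfdc2 was at 453 CPM in cancer-like cells and 20.02 CPM in leukocyte-like cells, a ratio of 22.6 (20.1 to 25.6). Msln followed with 551 against 35.9 CPM and a ratio of 15.3 (14.0 to 16.8), Clu with 332 against 33.8 CPM and 9.84 (8.97 to 10.8), and Cp with 178 against 20.8 CPM and 8.53 (7.59 to 9.63). Slpi ran the other way, with 12.3 CPM in cancer-like and 188 CPM in leukocyte-like cells, a ratio of 0.0654 (0.061 to 0.070). Lcn2 stood at 17.6 against 44.2 CPM, a ratio of 0.399 (0.364 to 0.438). Over all 13732 genes compared, 29.9% were higher and 17.3% lower in cancer-like cells by the same size rule. The median log2 ratio was 0.36 over all genes and 3.19 over the 6 members compared. When cells were instead classed one by one by their markers, the leukocyte-like reference grew from 1211 to 2529 cells. Wfdc2 alone then remained higher, at 3.097, while Msln stood at 1.72, Clu at 1.204 and Cp at 0.517. With macrophage-like cells alone as the reference, Lcn2 turned to a ratio of 1.23, since its leukocyte UMIs lay largely in neutrophil-like cells.

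In KPCA.FSTKO_hFSTL3 the same 4 genes were higher in cancer-like than in leukocyte-like cells. Wfdc2 gave 2 UMIs in all 188 leukocyte-like cells (0.663 CPM), for a ratio of 113 with a wide interval of 31.2 to 938. Msln stood at 7.95 CPM in leukocyte-like cells and gave a ratio of 45.5, and Clu at 5.96 CPM gave 34.3. Cp was the closest of the 4, with 94.1 against 25.2 CPM and a ratio of 3.74. Slpi was again lower in cancer-like cells, at 9.22 against 134.8 CPM, a ratio of 0.0684. Of 9242 genes compared in this library, 25.0% were higher and 17.7% lower in cancer-like cells. With cells classed one by one the leukocyte-like reference grew from 188 to 936 cells. None of the 4 genes was then higher by the size rule, with 1.86 for Wfdc2 and 1.51 for Msln. Clu (0.838) and Cp (0.806) were below 1.

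Shares of cells with a UMI were compared after each cell was thinned to 1000 UMIs, because cancer-like cells of KPCA.FSTKO had a median of 28563.5 UMIs and leukocyte-like cells 10739. Msln was found in 36.4% of thinned cancer-like cells and 4.19% of thinned leukocyte-like cells, and unthinned in 92.1% and 27.6%. The thinned shares of Wfdc2 were 26.1% and 3.02% (76.8% and 15.3% unthinned). Clu had thinned shares of 22.3% and 2.85%, and Cp of 17.5% and 2.68%. Slpi was seen in 1.02% of thinned cancer-like cells and 7.38% of thinned leukocyte-like cells, and Lcn2 in 1.27% and 6.04%. Muc16 was in none of the thinned cancer-like cells and in 0.221% of the unthinned ones. Thinning left out 19 leukocyte-like cells that had fewer UMIs.

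Leukocytes should lack Wfdc2 and Msln, and free RNA from broken cells can place a few UMIs in any droplet. The keratins Krt8 and Krt18, made by epithelial and mesothelial cells, gave a measure of it. If a gene reaches leukocytes only together with keratin RNA of cancer cells, its UMIs per keratin UMI should be alike in both. In KPCA.FSTKO the keratins stood at 1681 CPM in cancer-like cells and 98.6 CPM in leukocyte-like cells. Msln per keratin UMI in leukocyte-like cells was 1.11 times (1.01 to 1.22) that in cancer-like cells, and Wfdc2 0.753 times (0.666 to 0.849). The Wfdc2 interval lay below 1 and the Msln interval just above it. In T/NK-like cells the values were 1.09 for Msln and 0.868 for Wfdc2, and in macrophage-like cells 1.21 and 0.755. Single barcodes weighed on some of these values, since 1 T/NK-like cell held 54.9% of the Wfdc2 UMIs of its class. In macrophage-like cells 1 cell held 11.1% of Wfdc2 and 2 cells held 11.7% of Msln and 45.7% of Clu. The part of such cells in the ratios was not tested. In neutrophil-like cells both genes were below the keratins, with 0.680 (0.492 to 0.916) for Msln and 0.615 (0.421 to 0.869) for Wfdc2. Clu and Cp were above, at 1.73 and 2.00 in leukocyte-like cells. Slpi and Lcn2 departed widely, with 261 and 42.7 times the cancer-like ratio. In leukocyte-like cells of KPCA.FSTKO_hFSTL3 Msln stood at 0.872 (0.558 to 1.30), Clu at 1.16 (0.683 to 1.83) and Cp at 10.6 (8.27 to 13.4), so Cp was well above the keratin level there.

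**Figure D2:**
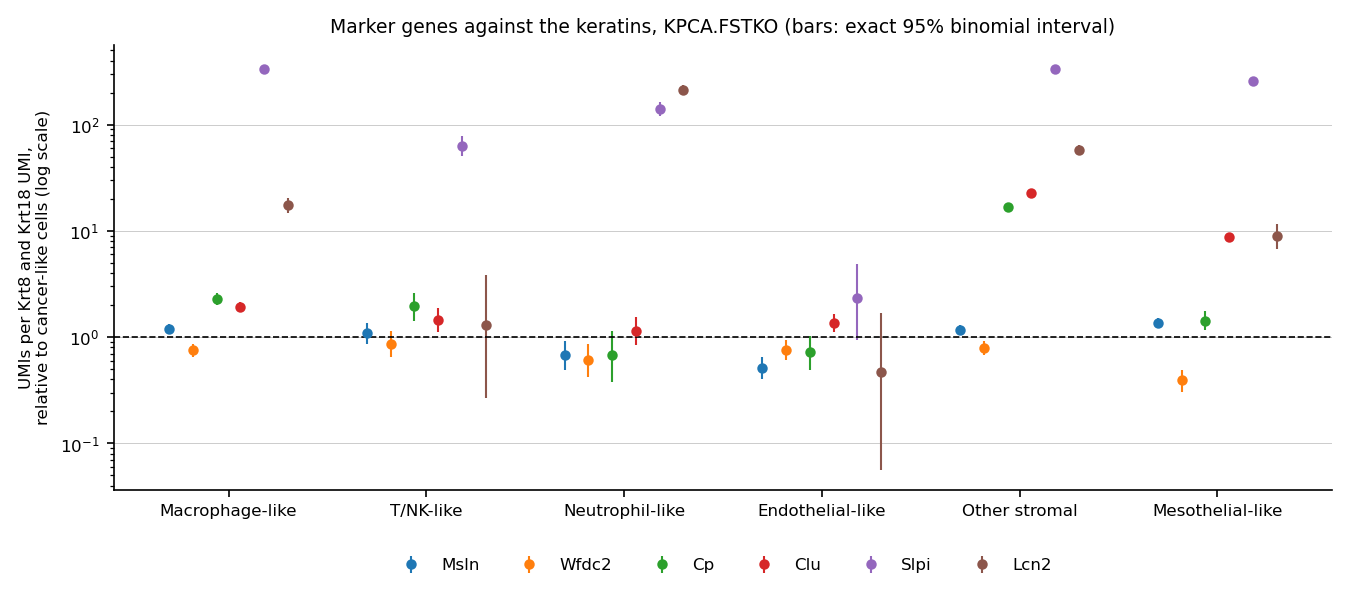
UMIs of 6 genes per Krt8 and Krt18 UMI in 6 classes of KPCA.FSTKO, relative to cancer-like cells (dashed line at 1), on a log axis with exact 95% binomial intervals. Msln and Wfdc2 lie between 0.392 and 1.37 in all 6 classes, while Slpi reaches 334 in the other stromal cells and Lcn2 211 in neutrophil-like cells.

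Both Slpi and Lcn2 were highest in neutrophil-like cells among the leukocytes of KPCA.FSTKO, and Slpi was also found in macrophage-like cells. Slpi, the elastase inhibitor, stood at 191 CPM (183 to 199) in the 879 macrophage-like cells of KPCA.FSTKO and 143.9 CPM in the 155 of KPCA.FSTKO_hFSTL3. A few cells carried most of this, since the 37 macrophage-like cells of KPCA.FSTKO with at least 10 Slpi UMIs held 79.8% of the class total. In KPCA.FSTKO_hFSTL3, 4 of 155 cells held 78.6%. Thinned to 1000 UMIs, 6.14% of macrophage-like cells of KPCA.FSTKO had a Slpi UMI. Macrophage-like cluster 21, whose leading genes include the proliferation gene Mki67, had 398 CPM of Slpi over 37 cells in KPCA.FSTKO and 48.5 CPM over 17 cells in KPCA.FSTKO_hFSTL3. T/NK-like cells stood at 75.2 CPM, but 2 cells held 82.2% of that. In endothelial-like cells Slpi was only at 5.95 CPM.

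Lcn2, the lipocalin of neutrophil granules, reached 1067 CPM (968.5 to 1173) in the 149 neutrophil-like cells of KPCA.FSTKO and 14.4 CPM in macrophage-like cells. It was found in 48.1% of thinned neutrophil-like cells, against 0.910% of thinned macrophage-like cells. Slpi was also high in neutrophil-like cells, at 499 CPM (432 to 573). Their median depth was 2543 UMIs. The 11 neutrophil-like cells of KPCA.FSTKO_hFSTL3 had a median of 789 UMIs and gave 3 Lcn2 and 4 Slpi UMIs in all, too few for a comparison.

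The other stromal cells, fibroblast-like and related clusters, had their own profile. In KPCA.FSTKO they had 564 CPM of Clu (546 to 582), 304 CPM of Slpi (291 to 318), 219 CPM of Cp (208 to 230) and 75.7 CPM of Lcn2, above cancer-like cells for each of the 4 genes. Clu and Cp, at 332 and 178 CPM in cancer-like cells, differed by less than 2-fold. Per keratin UMI the 4 genes, in the same order, stood at 23.0, 334, 16.7 and 58.1 times the cancer-like values. The keratins were at 124 CPM in these cells and 1681 CPM in cancer-like cells. A sub-cluster of 106 cells led by Cxcl13, Calca and Ccl2 held much of it, with 1307 CPM of Clu, 748 CPM of Slpi, 401 CPM of Cp and 154 CPM of Lcn2. The 82 myofibroblast-like cells stood at 256 CPM of Clu, 120 CPM of Cp and 11.9 CPM of Slpi. In KPCA.FSTKO_hFSTL3 the 63 other stromal cells had 701 CPM of Clu, 152 CPM of Cp and 131 CPM of Slpi. The Slpi of this class lay in few cells, with 83.4% of its UMIs in 21 of 409 cells of KPCA.FSTKO. In KPCA.FSTKO_hFSTL3, 4 of 63 cells held 80.4%, and the median cell had no Slpi UMI in either library. Msln and Wfdc2 stayed low in this class, at 47.6 and 26.4 CPM in KPCA.FSTKO.

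Mesothelial cells line the peritoneal cavity and the omentum and are a known source of mesothelin. The 33 mesothelial-like cells of KPCA.FSTKO had 1545 CPM of Slpi (1459 to 1634) and 1447 CPM of Clu (1364 to 1534), the highest level of either gene in any named class of that library. Msln stood at 370.4 CPM (329 to 415), Cp at 126 CPM (102 to 153), Wfdc2 at 87.5 CPM (68.1 to 111) and Lcn2 at 77.4 CPM (59.2 to 99.4). Muc16 was at 27.9 CPM (17.5 to 42.2). The fibroblast marker list summed to 13235 CPM in these cells, with none of its 11 markers raised over the other stromal cells. The macrophage list summed to 115 CPM and 7 of 8 T and NK markers were at 0. The cancer list, which holds keratins, summed to 2146 CPM against 5167 CPM in cancer-like cells. Hmga2, the highest cancer marker in cancer-like cells at 1772 CPM, stood at 411 CPM here and 129 CPM in the other stromal cells. The part of these other cell types in the levels, those of Msln and Wfdc2 included, was not tested.

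Over leukocyte-like cells, 5 of the 6 genes compared were higher in mesothelial-like cells and none was lower. The ratios were 42.8 for Clu, 10.3 for Msln, 8.20 for Slpi, 6.03 for Cp and 4.37 for Wfdc2, while Lcn2 stood at 1.75. Over 9267 genes compared, 13.1% were higher and 22.2% lower. With cells classed one by one, which gave 211 mesothelial-like and 2529 leukocyte-like cells, Wfdc2 and Msln were below 1, at 0.310 and 0.452.

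Compared with cancer-like cells of the same library, 3 of the 6 genes compared were higher in mesothelial-like cells and 1 was lower. Slpi was 125 times higher (116 to 136), Lcn2 4.39 times (3.34 to 5.66) and Clu 4.36 times (4.10 to 4.62). Wfdc2 was lower, with a ratio of 0.193 (0.150 to 0.244). Cp, with 0.707, and Msln, with 0.673 (0.597 to 0.754), differed by less than the size rule. Among 12967 genes compared, 11.0% were higher and 21.8% lower. The median log2 ratio was -0.16 over all genes and 0.82 over the members.

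The 33 cells were far from uniform. Slpi ran from 0 to 340 UMIs per cell with a median of 2, and 2 cells held 47.2% of its UMIs. Clu ran from 2 to 245 with a median of 15 and was the gene found in all 33 cells. Msln ran from 0 to 44 with a median of 5. Cp had a median of 1 and a highest value of 20, while Wfdc2 and Lcn2 had medians of 0 and highest values of 23 and 25. Scrublet called 5 of the 33 barcodes doublets. Without them Slpi was at 1898 CPM, Clu at 1624 CPM, Msln at 366.3 CPM, Lcn2 at 96.3 CPM and Wfdc2 at 66.3 CPM. The level of Slpi was thus higher, and that of Wfdc2 lower, in the 28 remaining cells.

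**Figure D3:**
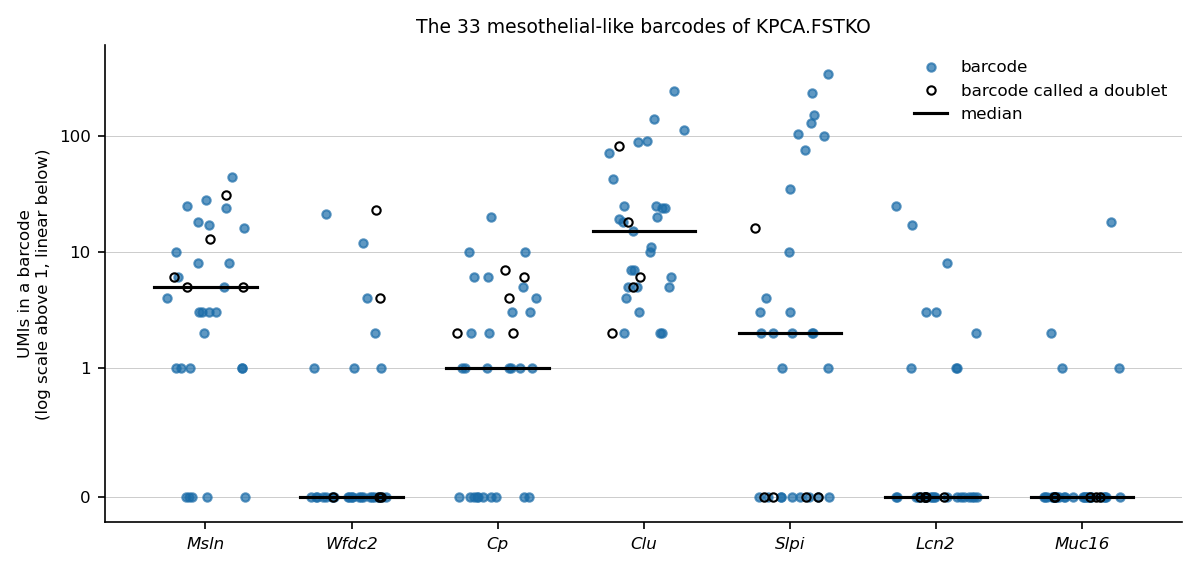
UMIs of each gene in each of the 33 mesothelial-like barcodes of KPCA.FSTKO, with medians as bars and barcodes called doublets as open circles (axis linear below 1 UMI and logarithmic above). Clu is found in every barcode, Slpi spans 0 to 340 UMIs, and 1 barcode holds 18 Muc16 UMIs.

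Muc16 was barely detected in cancer-like cells at this depth. In KPCA.FSTKO 13 barcodes held its 34 UMIs. The 4 mesothelial-like cells among them held 22 UMIs, of which 18 lay in a single cell that also carried 131 UMIs of mesothelial markers. The other 3 held 2, 1 and 1 UMIs beside 61, 17 and 20 marker UMIs. In cancer-like cells no cell held more than 2 Muc16 UMIs. The ratio of mesothelial-like over cancer-like cells was 305 (139 to 722), from 22 and 10 UMIs, under the minimum of the size rule. In KPCA.FSTKO_hFSTL3 its 41 UMIs lay 1 each in 41 barcodes of the mixed clusters. Its partner Msln gave 60196 UMIs in the cancer-like class of KPCA.FSTKO, so the 2 genes of the mesothelin pair were far apart in these cells.

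The 2 mesothelial-like cells of KPCA.FSTKO_hFSTL3, with 34090 and 26505 UMIs, held 71 and 237 Slpi UMIs, 25 and 42 Clu UMIs and 1 and 15 Msln UMIs. Cp gave 3 and 0, Lcn2 0 and 2, and neither cell had a UMI of Wfdc2 or Muc16. By the size rule Slpi was higher than in the mesothelial-like cells of KPCA.FSTKO, with a ratio of 3.29 (2.89 to 3.73), and Cp lower, with 0.394 (0.0799 to 1.19) from 3 UMIs, of 4 members compared. Among 1301 genes, 7.07% were higher and 17.5% lower. These ratios rest on 2 cells and say nothing of how such cells vary. The 2 cells held 60595 UMIs against 788389 for the class in KPCA.FSTKO. A gene with few UMIs could thus reach the minimum of 100 more easily when lower in KPCA.FSTKO_hFSTL3.

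Within the cancer-like class of KPCA.FSTKO, Msln was the most even of the genes. Its level was 507, 514, 625, 612 and 478 CPM in clusters 1, 2, 4, 6 and 11, a spread of 1.31-fold. Wfdc2 spread 6.26-fold, with 290 and 372 CPM in clusters 1 and 2, 654 CPM in cluster 4, 683 CPM in cluster 6 and 109 CPM in cluster 11. Cp went against Wfdc2, with 301 and 334 CPM in clusters 1 and 11 and 149, 90.9 and 81.4 CPM in clusters 2, 4 and 6. Cluster 6 was led by the mitosis genes Cenpf and Top2a and cluster 4 by Areg, the gene of amphiregulin. Cluster 11 had a median of 7365 UMIs per cell, against 28188 to 40258 in the other 4. Clu spread 2.23-fold, from 420 CPM in cluster 1 to 189 CPM in cluster 11.

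Lcn2 stood at 24.0, 19.9, 3.66, 18.1 and 9.63 CPM in the same 5 clusters, and Slpi at 12.3, 15.8, 9.09, 11.95 and 2.34 CPM, the last from 8 UMIs. At least 2-fold spreads over the clusters were thus seen for 5 of the 6 genes with 100 UMIs or more. The same spread was not computed over all genes, so this count has no background to be set against. The lowest levels of Wfdc2, Slpi and Clu lay in cluster 11, the cluster with the lowest median depth. Muc16, with 10 UMIs, was left out. At resolution 1.2 the spread of Clu was 1.70-fold and 4 genes remained, and at resolution 0.4, which gave 3 cancer-like clusters, Cp alone did. Cp was among the leading genes of cluster 1 and Wfdc2 of cluster 4, and since clusters are groups of similar cells their differences were not tested.

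**Figure D4:**
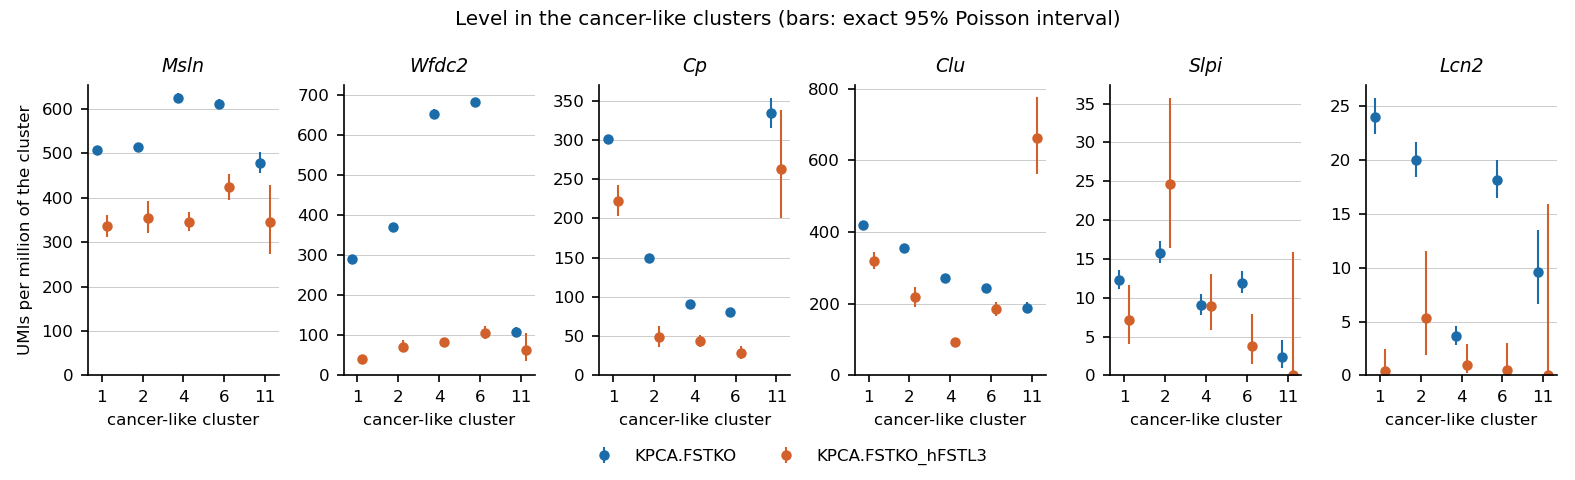
Level of 6 genes in the 5 cancer-like clusters of both libraries, as CPM of the cluster with exact 95% Poisson intervals, each panel on its own linear axis from 0. In KPCA.FSTKO, Wfdc2 is highest in clusters 4 and 6 (654 and 683 CPM) and Cp in clusters 1 and 11 (301 and 334 CPM), while Msln stays between 478 and 625 CPM.

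Cells of this class differed in how evenly they shared the UMIs. The 5% of cancer-like cells of KPCA.FSTKO with most UMIs of a gene held 22.0% of Msln, 27.6% of Cp, 28.6% of Wfdc2 and 35.7% of Clu. For Slpi the share was 68.7% and for Lcn2 92.0%. The median cell had 11 Msln, 4 Wfdc2, 4 Clu and 3 Cp UMIs and none of Slpi or Lcn2. One cell held 194 Lcn2 UMIs, and 41 of 3626 cells with at least 10 held 68.9% of its total. So the Lcn2 level of this class was that of a small number of cells. Rank correlations between genes over the 3626 thinned cells stayed between -0.10 and 0.16 and in counts this sparse are not a finding.

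The comparison of the libraries asks how tumors from cells that secrete human FSTL3 differ from their parent. In cancer-like cells, 2 of the 6 genes compared were lower in KPCA.FSTKO_hFSTL3 by the size rule and none was higher. Wfdc2 went from 453 CPM in KPCA.FSTKO (49526 UMIs) to 75.1 CPM in KPCA.FSTKO_hFSTL3 (635 UMIs), a ratio of 0.166 (0.153 to 0.179). Lcn2 went from 17.6 CPM (1928 UMIs) to 1.30 CPM (11 UMIs), a ratio of 0.0737 (0.0368 to 0.132). In KPCA.FSTKO, 41 of 3626 cells held 68.9% of these Lcn2 UMIs, and among only 171 cells of KPCA.FSTKO_hFSTL3 none held 10 or more. The interval of Lcn2 does not cover this unevenness between cells, so its ratio is less certain than the interval shows. Over 13031 genes compared, 7.09% were lower and 3.40% higher, with a median log2 ratio of 0.02 against -0.81 over the members. The library, the clone, the acinar level and the mitochondrial share differ together with the line, and these cannot be told apart.

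The other 4 genes differed by less than 2-fold. Cp had a ratio of 0.530 (0.493 to 0.569), Clu of 0.616 (0.587 to 0.647), Msln of 0.657 (0.633 to 0.681) and Slpi of 0.748 (0.588 to 0.941). All 6 values were below 1, but that of Slpi stayed so in only 9 of 13 alternative settings. The share of all genes below 1 is not given here, so this count has no background. The summed level of the cancer markers was alike in both libraries. These cells were named by those markers, so that sum is no independent contrast. The epithelial adhesion gene Epcam, which is in none of the marker lists, gave no UMI in cancer-like cells of KPCA.FSTKO_hFSTL3 against 526 UMIs in KPCA.FSTKO. Among the cancer markers, Krt19 stood at 500.5 against 1017 CPM, Krt7 at 179 against 162 CPM and Krt8 at 1141 against 784 CPM, so that these keratins did not all differ in the same direction.

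Wfdc2 was lower in KPCA.FSTKO_hFSTL3 in each of the 5 cancer-like clusters, with ratios of 0.142, 0.194, 0.127, 0.156 and 0.592 in clusters 1, 2, 4, 6 and 11. Cluster 11 held 7 cells of that library. Msln ratios lay between 0.554 and 0.721 and Cp ratios between 0.325 and 0.787. Clu was below 1 in clusters 1, 2, 4 and 6 and at 3.52 in cluster 11. For Slpi the ratio in cluster 2 was 1.56.

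**Figure D5:**
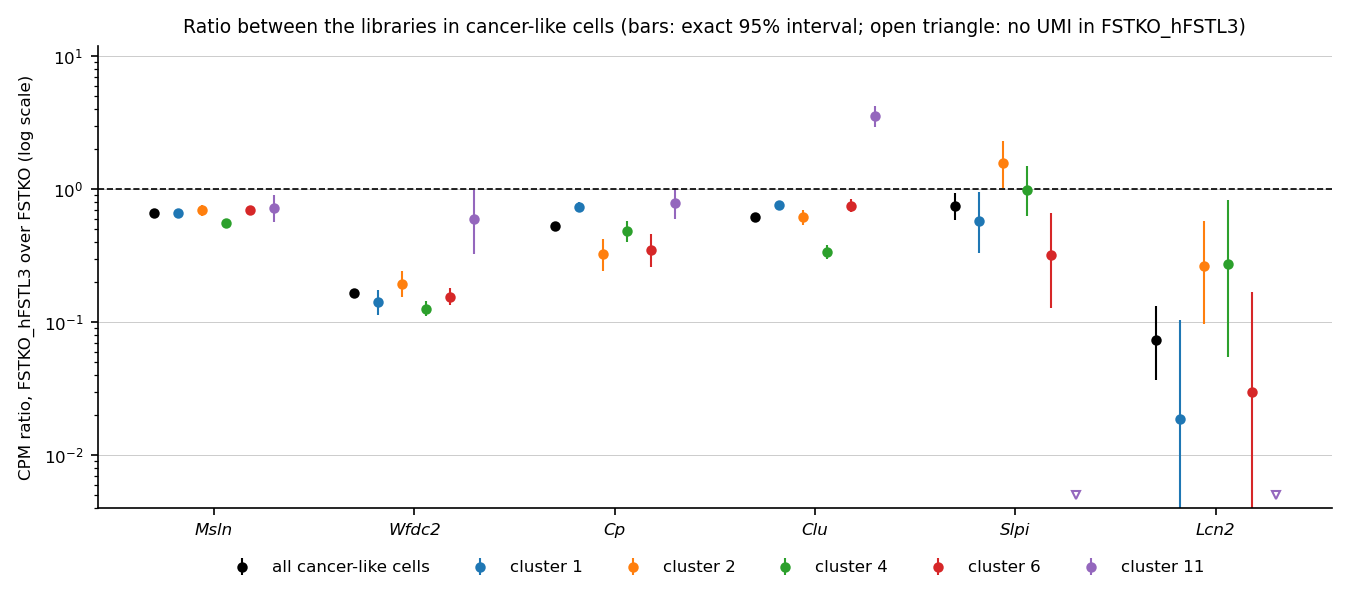
CPM ratio of KPCA.FSTKO_hFSTL3 over KPCA.FSTKO for 6 genes, over all cancer-like cells and in each of the 5 clusters, on a log axis with exact 95% intervals and open triangles where KPCA.FSTKO_hFSTL3 had no UMI. Over all cancer-like cells the ratios run from 0.0737 for Lcn2 and 0.166 for Wfdc2 to 0.748 for Slpi.

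The ratios rest on 171 cancer-like cells of KPCA.FSTKO_hFSTL3, so they were recomputed after adding the mixed clusters to the cancer-like class. Wfdc2 then had a ratio of 0.159 and Msln of 0.520, close to the values above. Cp moved to 0.277 and Clu to 0.513. Lcn2 moved to 0.533, no longer lower by the size rule, and Slpi to 5.31, now higher. The mixed clusters of KPCA.FSTKO_hFSTL3 had 74.05 CPM of Slpi, against 9.22 CPM in its cancer-like cells. Scaling by TMM, which adjusts for the makeup of the summed profiles, gave 0.155 for Wfdc2 and 0.0689 for Lcn2. Per keratin UMI the ratios of all 6 genes were lower still, from 0.0533 for Lcn2 to 0.541 for Slpi.

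Outside the cancer cells the libraries also differed. In macrophage-like cells Msln was at 31.0 CPM in KPCA.FSTKO and 8.23 CPM in KPCA.FSTKO_hFSTL3, Clu at 29.7 and 5.01 CPM, and Wfdc2 at 15.96 and 0.358 CPM, the last from 1 UMI. Cancer-like cells were 53.5% of kept barcodes in KPCA.FSTKO. In KPCA.FSTKO_hFSTL3 they were 4.23%, with the mixed clusters, 86.7% of its barcodes, kept apart although these raised 3 to 9 of 14 cancer markers. The part of these shares in the macrophage levels was not tested. Slpi, which stood far above the keratin level in macrophage-like cells, had a ratio of 0.755. Cp had a ratio of 1.42 (1.08 to 1.85).

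Genes related to the members were followed as 4 lists, described by counts and medians. Between the libraries in cancer-like cells, 7.09% of all 13031 genes compared were lower and 3.40% higher. The class totals were unequal, with 109304433 UMIs on the KPCA.FSTKO side and 8456297 on the other. A gene with few UMIs could thus reach the minimum of 100 more easily when lower in KPCA.FSTKO_hFSTL3 than when higher. The part of this in the counts and medians of the 4 lists between the libraries was not tested. The list of WAP genes, mucins and the mesothelin-like gene Mslnl had 6 of 16 genes with enough UMIs for the comparison of the libraries in cancer-like cells. Of these none was higher and 4 were lower in KPCA.FSTKO_hFSTL3 (Wfdc3, Wfdc18, Muc1 and Muc5b), with a median log2 ratio of -2.44. The other secreted or shed tumor markers had 2 higher and 3 lower of 14 compared, with a median of 0.06. Vtcn1, the gene of the immune checkpoint protein B7-H4, gave 67 UMIs in KPCA.FSTKO_hFSTL3 and 252 in KPCA.FSTKO, a ratio of 3.44 (2.59 to 4.52). The claudin genes Cldn3, with 32 and 1288 UMIs, and Cldn4, with 0 and 189 UMIs, were lower.

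Genes of the acute-phase and NF-kappaB response, the setting in which Lcn2, Slpi and Cp are known, had none higher and 7 lower of 13 compared, with a median log2 ratio of -1.23. Lbp, the lipopolysaccharide-binding protein, stood at 171 CPM in KPCA.FSTKO and 12.1 CPM in KPCA.FSTKO_hFSTL3, and complement C3 had a ratio of 0.285. Hp, Serpina3n, Steap4, Il1b and Cxcl5 were the other 5. Saa3, with a ratio of 1.01, and Nfkbiz, with 0.692, were not among the genes past the size rule. Partners and targets of the members, such as receptors of Lcn2 and proteases that Slpi inhibits, had 1 higher and 1 lower of 10, with a median of 0.14. Mmp9, the gelatinase whose protein binds Lcn2, gave 41 UMIs in KPCA.FSTKO_hFSTL3 and 118 in KPCA.FSTKO, a ratio of 4.49. Prtn3, the gene of proteinase 3, was the lower one, with 2 and 113 UMIs. Hp, Il1b, Mmp9 and Prtn3 were each lower in cancer-like than in leukocyte-like cells of KPCA.FSTKO by the size rule. The part of free RNA from leukocytes in their cancer-like values was not tested.

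Mesothelial-like cells of KPCA.FSTKO carried the acute-phase list more than cancer-like cells did, with 7 of 13 genes higher and 1 lower and a median log2 ratio of 3.11. Of all 12967 genes in this comparison, 11.0% were higher and 21.8% lower. Saa3, an acute-phase serum amyloid gene, stood at 2497.5 CPM against 6.46 CPM, and C3 at 1833 against 49.3 CPM. Lbp was the gene that ran the other way, with a ratio of 0.394. Of the WAP and mucin relatives none of 6 was higher and 5 were lower. The other secreted markers had 8 higher and 2 lower of 15, and the partners 3 higher and 1 lower of 10. Between cancer-like and leukocyte-like cells of KPCA.FSTKO, 29.9% of all 13732 genes compared were higher in cancer-like cells and 17.3% lower. There the WAP and mucin relatives had 4 higher and 2 lower of 7, and the other secreted markers 6 and 6 of 16. The partners had 4 and 4 of 10 and the acute-phase list 3 and 5 of 13.

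Each gene was also set beside those whose level varied most like it over the 19 clusters of KPCA.FSTKO with at least 30 cells, among 14326 genes. The measure was Pearson's r of log2(CPM + 1), over clusters that share a library and differ in depth. Wfdc2 varied most like Krt18 (0.956), Phgdh (0.949) and 2200002D01Rik (0.941), and Msln like Cdkn2a (0.948), Klra4 (0.938) and Krt7 (0.936). The nearest genes to Wfdc2 and Msln thus included keratins. Slpi had looser neighbours, Ccng1 (0.889), Gm2a (0.887) and Ifi27l2a (0.879), and Lcn2 the neutrophil-associated gene Stfa2l1 (0.770), Il1f9 (0.743) and Cstdc4 (0.738). Cp varied most like Scarf2 (0.960), Ptprs (0.938) and Wls (0.931), and Clu like Nrip2 (0.928), Ak1 (0.912) and Cmbl (0.885). For Muc16, with 34 UMIs, the nearest were Calcb (0.924), Nxph1 (0.874) and Hoxa2 (0.849). Among the members, Wfdc2 and Msln had an r of 0.916 and Slpi and Msln one of -0.423.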

How the data were processed

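The authors pooled 4 tumors per line, made 1 droplet library (10x Genomics 3-prime) of each, aligned reads to mm10 with Cell Ranger (3.1.0 in the notes, 7.2.0 in the matrix header) and deposited raw UMI counts per gene and barcode. Barcodes with a mitochondrial share under 20% and more than 200 and fewer than 8000 genes were kept, after the methods of the study. Both libraries were merged and clustered in Seurat 5.3.0 (R 4.3.3) with 2000 variable genes that exclude the 7 members, 10 principal components, 20 neighbours and resolution 0.8. Stromal cells were clustered again.

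A cluster took a class name when 3 or more of that class's markers, making up 50% or more of its list, were each detected in 25% of cells or more at over 1.5 times the reference CPM. Clusters that met it for cancer and another class, or had a median depth under 1 part in 3 of their library's and none of their markers among the top 10 genes, stayed unnamed, and those with 2 or more acinar genes among the top 10 were called mixed. Stromal sub-clusters took the class with the largest share of raised markers, 3 or more, unless another list had more of the top 10 genes. This rule was written after the clusters were seen. The members and gene lists were chosen with earlier results of these data known. The genes named are the members, the 3 genes most alike each member over clusters, and genes of 4 related lists that passed the size rule. Epcam, the keratins, Saa3 and Nfkbiz between the libraries, and the clusters singled out, were chosen after their values were seen.

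UMIs were summed per class and library and given as CPM. With 1 library per line no test was made. Ratios carry conditional binomial intervals, shares Clopper-Pearson intervals, and a count of 0 is set against a floor of 3 counts. TMM factors came from edgeR 4.0.16, used for scaling alone. Doublets were scored with Scrublet in scanpy 1.11.5 and kept. It called 90 barcodes of KPCA.FSTKO and 1 (0.0247%) of KPCA.FSTKO_hFSTL3, where doublets were thus hardly screened. Python 3.11.15, numpy 2.4.6, scipy 1.17.1 and pandas 2.3.3 were used, and the ratio step was tested on simulated data. Alternatives changed the filters, the clustering, the scaling and the thresholds.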

Additional observations from a re-analysis of the deposited data

Results flagged for a closer look

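Cells that were given no class name held several of the genes above their level in leukocyte-like cells of the same library. In the mixed clusters of KPCA.FSTKO_hFSTL3, Wfdc2 stood at 71.7 CPM (69.4 to 73.9) against 0.663 CPM in leukocyte-like cells, and Msln at 274 CPM (270.0 to 279) against 7.95 CPM. Clu was at 165 CPM against 5.96 CPM, Cp at 42.2 CPM against 25.2 CPM and Lcn2 at 10.7 CPM against 3.64 CPM. The Wfdc2 level of these clusters was close to the 75.1 CPM of cancer-like cells of that library. In the unnamed clusters of KPCA.FSTKO, Wfdc2 was at 388 CPM against 20.02 CPM, Msln at 349 CPM against 35.9 CPM, Clu at 262 CPM against 33.8 CPM and Cp at 101 CPM against 20.8 CPM.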

How the results depend on the processing

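Leaving out a replicate was not possible with 1 library per line. No paired analysis was possible because each line had a single library. In cancer-like cells the library ratios of Wfdc2 (0.1198 to 0.218), Msln (0.475 to 0.696), Lcn2 (0 to 0.533), Cp (0.277 to 0.633) and Clu (0.430 to 0.998) stayed below 1 in all 13 alternatives, and that of Slpi (0.469 to 5.40) in 9. The number of members lower in KPCA.FSTKO_hFSTL3, 2 in the report, was 4 without the barcode filter, 4 with cells named one by one and 5 per keratin UMI. The number higher, 0 in the report, was 1 at resolution 1.2, 1 with each library clustered alone and 1 with the mixed clusters as cancer-like. Genes lower and higher numbered 924 and 443, and 1645 and 1526 with the mixed clusters, 1873 and 960 from 20 UMIs, 6948 and 2424 from 1 UMI and 1826 and 1494 at a ratio of 1.5. Cancer-like clusters differed at least 2-fold for 5 members, and for 1 at resolution 0.4.

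Naming cells one by one gave 2574 and 245 cancer-like and 211 and 736 mesothelial-like cells. Leukocyte-like cells, the reference, rose from 1211 and 188 to 2529 and 936. Then 1 member rather than 4 was higher in cancer-like than in leukocyte-like cells of KPCA.FSTKO. In KPCA.FSTKO_hFSTL3, 0 rather than 4 were higher and 2 rather than 1 lower. Mesothelial-like over leukocyte-like cells of KPCA.FSTKO had 3 rather than 5 higher and 2 rather than 0 lower, and mesothelial-like over cancer-like cells 2 rather than 1 lower. Reversed there were Cp (0.517) for cancer-like over leukocyte-like cells of KPCA.FSTKO, Cp (0.806) and Clu (0.838) in KPCA.FSTKO_hFSTL3, and Wfdc2 (0.310) and Msln (0.452) for mesothelial-like over leukocyte-like cells. With macrophage-like cells as the reference, 1 member rather than 2 was lower in cancer-like cells, as Lcn2 reversed to 1.23. In KPCA.FSTKO_hFSTL3 1 member was lower in cancer-like cells, and 0 with each library clustered alone or without the top 5% of cells. Between the libraries in mesothelial-like cells, which rests on 2 cells of KPCA.FSTKO_hFSTL3, 1 member was higher, and 0 with each library alone or cells named one by one. There 1 was lower, and 3 with each library alone, 0 without doublets and 4 one by one. Slpi reversed to 0.397 with each library alone and 0.110 one by one, and Cp to 1.40 with each library alone. The cause of these changes was not tested. Depth limits Muc16 throughout, and Lcn2 and Slpi in cancer-like cells of KPCA.FSTKO_hFSTL3.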

Other observations

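Where cells carried no class name, the clusters differed in the members. Among the unnamed clusters of KPCA.FSTKO, Wfdc2 stood at 849 CPM in the 186 cells of cluster 12 and 688 CPM in the 100 cells of cluster 19, and at 83.1 CPM in the 121 cells of cluster 17. In the same 3 clusters Cp stood at 35.2, 29.7 and 165 CPM. Among the mixed clusters of KPCA.FSTKO_hFSTL3, Slpi was at 80.4, 62.7, 52.8 and 21.7 CPM in clusters 0, 5, 9 and 10, and Wfdc2 at 72.9, 51.0, 74.7 and 37.0 CPM. A sub-cluster of 42 stromal cells of KPCA.FSTKO with a low median depth of 1340 UMIs had 958 CPM of Slpi from 130 UMIs, while the 11 cells of a fibroblast-like sub-cluster had 330 CPM of Cp and no Slpi UMI.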
